A study of Mus musculus with 4 samples.

Results

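The genes described here encode potassium channels that carry calmodulin as a bound subunit: Kcnq3 and Kcnq5 of the KCNQ family, and Kcnn1, Kcnn2, Kcnn3 and Kcnn4 of the calcium-activated SK family. They were chosen by symbol, with earlier results of these data known. Their probe sets are those that the platform annotation assigns to exactly 1 of these genes. The channel genes make up 6 of the 19938 genes measured. Each was read by 1 probe set.

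Cortical neurons were cultured from pups at postnatal day 0, whose strain is given as SV129 x C57BL/6 mixed, in serum-containing medium with Ara-C, which limits dividing cells. RNA was taken after 14 to 15 days in vitro and read on Affymetrix mouse Gene 1.0 ST arrays, which probe whole transcripts. In the knockdown, lentiviruses added at 5 days in vitro delivered shRNAs against calmodulin. In the rescue, the same shRNAs came together with a wild-type calmodulin that they do not target. In the control, a control lentivirus was used. Pups of Syt1-deficient and of wild-type mice are both named as sources, without saying which gave which array. Each of the 2 repeats, whose sample titles carry different numbers, gave 1 knockdown, 1 rescue and 1 control array. The knockdown and rescue are therefore 2 samples each, and every value is a ratio to the control array of the same repeat, given below as log2, where 0 is equality with control. Ratios carry no level, so neither the abundance of a channel transcript nor the presence of neuronal markers in the cultures could be read from them, and no gene's level is set against another's. The promoter that drove the shRNAs and the share of infected cells are not given in the sources used here.

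KCNQ proteins form tetramers that carry the M-current, a slowly activating potassium current that holds neurons back from repetitive firing and that closes when Gq-coupled receptors such as muscarinic receptors deplete the membrane lipid PIP2. Calmodulin sits on helices of their C-terminal tail and takes part in assembly, trafficking and calcium sensitivity. SK channels are opened by calcium alone, which they sense through calmodulin held permanently on their C-terminal tail, and they give rise to the afterhyperpolarization that follows action potentials.

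Both KCNQ genes fell in the knockdown, and neither passed the test in the rescue, where Kcnq5 lay near control and Kcnq3 below it. No SK gene passed the test in any of the 3 comparisons. Kcnq3 stood at 45.9% and Kcnq5 at 50.6% of control in the knockdown (means of 2 repeats on the log2 scale), and in the rescue Kcnq3 stood at 82.2% of control and Kcnq5 at a log2 ratio of 0.01. In bulk cultures, fewer cells of a type and less RNA per cell cannot be told apart.

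Kcnq3, which encodes a subunit of the classical M-channel, was at -1.02 and -1.23 in the 2 knockdown repeats. It was at -0.49 and -0.08 in the 2 rescue repeats. Both knockdown values lay below both rescue values, and both rescue values below 0. The knockdown mean of -1.12 (SE 0.14, n = 2, limma adjusted p = 0.0281) had a 95% interval from -1.45 to -0.80, and only 24 of 19938 genes had a lower mean. The gap between its knockdown repeats, 0.20, was close to the median gap over all genes, also 0.20. SEs and intervals, here and below, are from limma, with a spread drawn from all 4 samples and from all genes.

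Kcnq5, whose product forms M-type channels alone or with that of Kcnq3, was at -0.73 and -1.24 in the knockdown. It was at 0.03 and -0.02 in the rescue; the groups did not overlap, and both rescue values lay close to control. The knockdown mean of -0.98 (SE 0.15, n = 2, limma adjusted p = 0.0491) had an interval from -1.32 to -0.65. Its knockdown repeats lay 0.51 apart, farther than those of Kcnq3. The SD was 0.36 over the 2 knockdown values and 0.04 over the 2 rescue values. The SE draws on both groups, so it is smaller than the knockdown values alone would give.

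Of the 6 channel genes, 2 passed in the knockdown against control, both lower. Over all genes 61 passed, which is 0.306% of those tested, 27 higher and 34 lower (13 and 7 after quantile normalization), and the lower ones alone were 0.171%. Counted by size, Kcnq3 was the 1 channel gene at least 2-fold below control in both knockdown repeats, as were 16 genes in all (0.0802%). Counted by sign, 3 of the 6 (Kcnq3, Kcnq5 and Kcnn1) were below control in both repeats, where 31.1% of all genes were. The 6 genes were chosen with earlier results of these data known, so these shares are background and test no enrichment.

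How far the calls stood from the threshold depended on the fit. With the repeat as a block, both genes passed with limma adjusted p = 0.00546 for Kcnq3 and 0.00701 for Kcnq5, as did 3.48% of all genes on the lower side. The shared control array of a repeat supports the block for the comparison of knockdown with rescue, where it cancels. Against control, the block takes what both groups of a repeat share, control array included, out of the spread but not out of the mean. Blocked p-values against control, here and below, can therefore be too small. Without knockdown replicate 1, Kcnq3 was at -1.23 and Kcnq5 at -1.24. With 1 knockdown sample left, the spread comes from the rescue alone, so only the values are given. Neither gene passed after quantile normalization (limma adjusted p = 0.0630 for Kcnq3 and 0.0575 for Kcnq5) or in fits without rescue replicate 1 or without rescue replicate 2 (0.0608 and 0.117 in each), in which the rescue no longer adds to the estimate of the spread. With every probe set on the array tested, named or not, the adjusted p was 0.395 for both, and with probe sets of several symbols included that of Kcnq5 was 0.0526. Without knockdown replicate 2, which also leaves 1 knockdown sample, Kcnq3 was at -1.02 and Kcnq5 at -0.73.

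**Figure D1:**
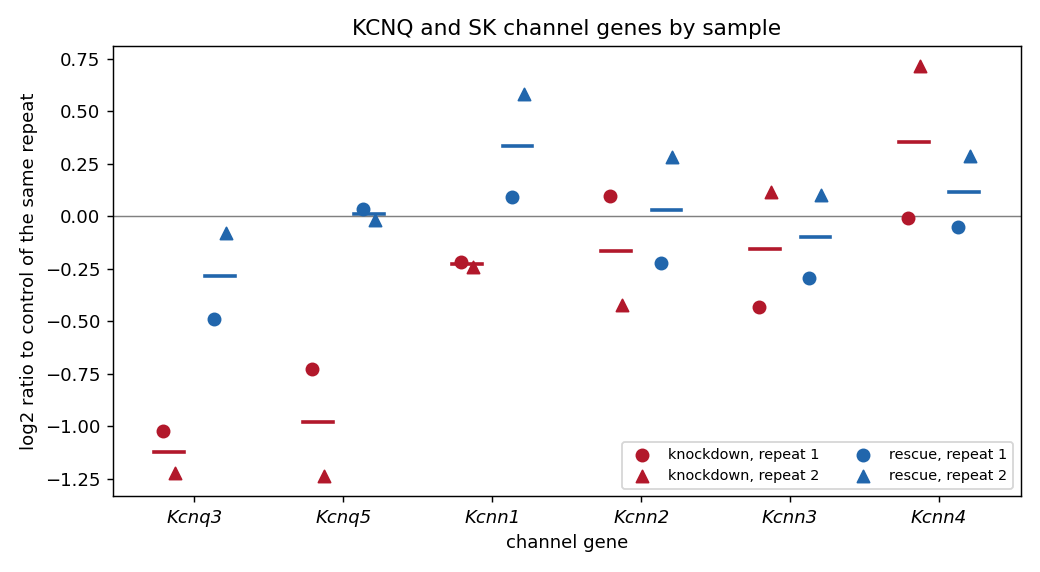
Log2 ratio to control of the same repeat (vertical axis) for the 6 channel genes, with knockdown (red) left of rescue (blue). Circles are repeat 1, triangles repeat 2, bars the mean of both, and the grey line is control. Kcnq3 and Kcnq5 lie at -0.73 or below in each knockdown sample, while all rescue values of the 6 genes lie between -0.49 and 0.58.

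RefSeq promoter windows (GRCm38.p6) were at hand for 4 of the 6 genes, Kcnq5, Kcnn1, Kcnn3 and Kcnn4. The 250 bases before the outer of the annotated starts of Kcnq5 (chr1:21962651-21962900, minus strand) are shown because this gene fell, and those of Kcnn3 (chr3:89519914-89520163, plus strand) because it did not pass. In rodent sympathetic neurons, transcription of KCNQ genes is known to respond to calcineurin, a calmodulin-dependent phosphatase, through NFAT factors, so the NFAT core GGAAA was searched on both strands (TTTCC on the other). Sp1 boxes (GGGCGG or CCGCCC) and the cAMP response element half-site (TGACG or CGTCA) were searched in the same way. Capitals mark NFAT cores.
Kcnq5: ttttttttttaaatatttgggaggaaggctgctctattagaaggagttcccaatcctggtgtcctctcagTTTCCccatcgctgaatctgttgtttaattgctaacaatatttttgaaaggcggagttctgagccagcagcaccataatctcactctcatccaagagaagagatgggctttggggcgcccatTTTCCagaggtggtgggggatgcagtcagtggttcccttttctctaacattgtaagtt
Kcnn3: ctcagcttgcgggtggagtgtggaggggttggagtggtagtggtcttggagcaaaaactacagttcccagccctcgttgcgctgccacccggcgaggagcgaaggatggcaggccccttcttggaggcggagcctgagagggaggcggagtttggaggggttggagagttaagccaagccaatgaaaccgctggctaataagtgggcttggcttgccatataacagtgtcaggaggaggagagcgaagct

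The Kcnq5 window held 2 NFAT cores and the Kcnn3 window 0, and neither held an Sp1 box or a cAMP response element half-site. Of 32851 promoter windows of this length in the RefSeq table, 55.6% held an NFAT core, 32.7% an Sp1 box and 17.8% the half-site, so such matches are common. The GC content was 44.4% in the Kcnq5 window and 58.8% in that of Kcnn3, beside a median of 52.4%. Among the windows not printed, that of the other Kcnq5 start held 1 NFAT core, those of the 2 Kcnn1 starts 0 and 1, and that of Kcnn4 none. An Sp1 box lay in the windows of the first Kcnn1 start and of Kcnn4, and a half-site in that of the second Kcnn1 start. The GC content was 60.8% at the other Kcnq5 start, 60.4% and 63.6% at the Kcnn1 starts and 58.8% at Kcnn4. The GC contrast of the printed windows thus depends on which Kcnq5 start is taken. These matches describe letters in a sequence, and binding was not measured.

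None of the 4 SK genes passed in the knockdown against control (lowest limma adjusted p = 0.388, and 0 of 4 at an unadjusted p under 0.05; 0 passed with the repeat as a block). Their median was -0.16, beside 0.00 for all genes. Whether the KCNQ and SK genes differed from each other was not tested.

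Kcnn1, which encodes the SK1 subunit, was at -0.22 and -0.24 in the knockdown, against 0.09 and 0.58 in the rescue. The knockdown repeats lay close together and below both rescue values. Its knockdown mean of -0.23 had a 95% interval from -0.56 to 0.10 and its rescue mean of 0.34 one from 0.01 to 0.66 (limma adjusted p = 0.467 and 0.662).

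Kcnn2, which encodes SK2, the subunit found at many glutamatergic synapses of cortex and hippocampus, was at 0.10 and -0.42 in the knockdown and at -0.22 and 0.28 in the rescue. Both groups had 1 value on each side of control, and they overlapped. The intervals were -0.56 to 0.23 in the knockdown and -0.36 to 0.42 in the rescue.

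Kcnn3, which encodes SK3, a subunit known from dopamine neurons, was at -0.43 and 0.11 in the knockdown and at -0.30 and 0.10 in the rescue. Within each repeat the groups lay close to each other, and the repeats lay apart. The intervals were -0.54 to 0.22 in the knockdown and -0.48 to 0.28 in the rescue.

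Kcnn4 encodes the intermediate-conductance channel of the family, best known from red blood cells, lymphocytes and microglia. It was at -0.01 and 0.71 in the knockdown and at -0.05 and 0.29 in the rescue. Its mean of 0.35 in the knockdown had an interval from -0.06 to 0.77 and rested on repeat 2, in which fibroblast markers had a median of 0.55, endothelial markers 0.30 and microglia markers -0.01. The part of other cells in this value was not tested. Without knockdown replicate 1 the value was 0.71, from 1 knockdown sample. As linear ratios, the knockdown intervals of Kcnn1, Kcnn2 and Kcnn3 reached down to 0.679, 0.680 and 0.689 of control, so falls of that size were not excluded.

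**Figure D2:**
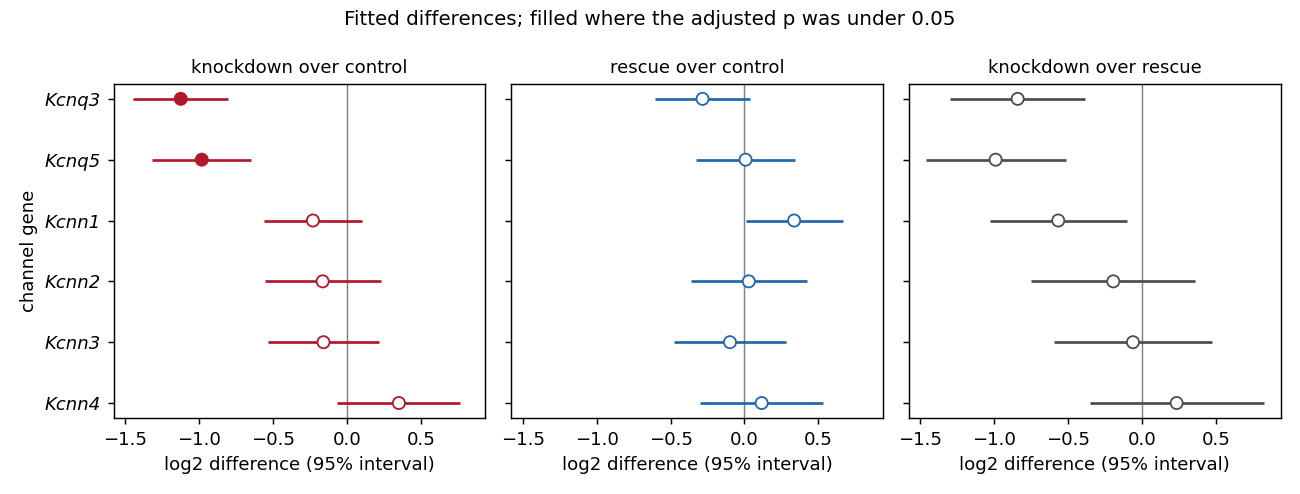
Fitted log2 differences (points) with 95% intervals (lines) of the 6 channel genes for knockdown over control, rescue over control and knockdown over rescue, from limma. Filled points have an adjusted p under 0.05. These are Kcnq3 at -1.12 and Kcnq5 at -0.98 in the knockdown over control, and no point is filled in the other panels.

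The rescue was set against control to see what remained changed once resistant calmodulin was supplied. Here 0 of the 6 genes passed and 0% of all genes did. At an unadjusted p under 0.05 there were 1484 genes in limma, Kcnn1 among them, and 25 genes passed with the repeat as a block, none a channel gene of the 6. The Kcnq3 mean was -0.28, with an interval from -0.60 to 0.04, and 1154 genes had a lower mean. The Kcnq5 mean was 0.01, with an interval from -0.33 to 0.34. The rescue interval of Kcnq5 lies wholly above its knockdown interval, and so does that of Kcnq3.

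Of the calmodulin genes, which the shRNAs target, Calm2 was at -1.08 and -1.72 in the knockdown and at -0.84 and -1.28 in the rescue, and Calm3 at -1.32 and -2.40 in the knockdown and at -2.41 and -3.55 in the rescue. Both lay below control in every sample, so they set both groups apart from control but cannot tell which array is knockdown and which is rescue. Calm3 was higher in the knockdown than in the rescue by 1.12 (limma adjusted p = 0.613, or 0.0169 with the repeat as a block).

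**Figure D3:**
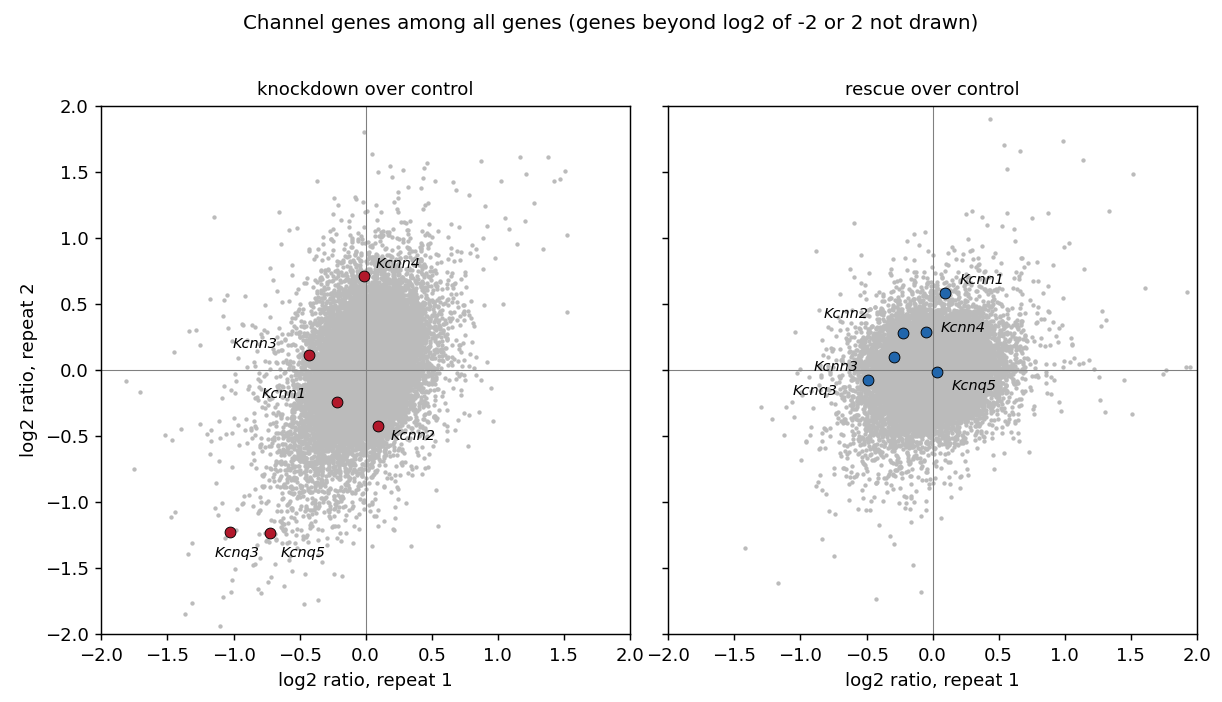
Log2 ratio to control in repeat 1 (horizontal) and repeat 2 (vertical) for all genes (grey) and the 6 channel genes, in the knockdown (left) and the rescue (right). In the knockdown, Kcnq3 and Kcnq5 lie at the lower left edge of the cloud, and in the rescue all 6 lie within it. The axes end at 2, which leaves out 10 genes on the left and 2 on the right.

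The comparison of knockdown with rescue asked what differed with and without the resistant calmodulin, and within a repeat the control array cancels. Both KCNQ genes were lower in the knockdown than in the rescue of the same repeat. The difference was -0.53 and -1.15 for Kcnq3 and -0.76 and -1.22 for Kcnq5. The mean was -0.84 for Kcnq3 (interval -1.29 to -0.39, limma adjusted p = 0.306) and -0.99 for Kcnq5 (interval -1.46 to -0.52, limma adjusted p = 0.229), and neither passed. With the repeat as a block Kcnq5 passed (adjusted p = 0.0429) and Kcnq3 did not (0.0947). The background for that fit was 0.431% of genes lower, and that of the unblocked fit 0.0702% in either direction, with 0 of the 6 channel genes past. At an unadjusted p under 0.05 in the unblocked limma fit were 3 of the 6, beside 1359 of all 19938 genes. Without knockdown replicate 1, which leaves 1 knockdown sample, the difference was -0.94 for Kcnq3 and -1.24 for Kcnq5.

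Kcnn1 differed by -0.31 and -0.82 in the 2 repeats. Its mean difference of -0.57 had an interval from -1.03 to -0.10 and an adjusted p of 0.568 in limma. For 3 of the 6 genes (Kcnq3, Kcnq5 and Kcnn1) both knockdown values lay below both rescue values, as they did for 15.1% of all genes. Kcnn2 differed by -0.19 (interval -0.75 to 0.36), Kcnn3 by -0.06 (-0.60 to 0.47) and Kcnn4 by 0.23 (-0.35 to 0.82), and their groups overlapped. The knockdown and rescue ratios of a repeat share their control array, which adds likeness between the groups.

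The 1 other KCNQ subunit analysed here was Kcnq1, known mainly from heart and epithelia. It was at 0.12 and 0.43 in the knockdown and at 0.20 and 0.17 in the rescue, without passing (limma adjusted p = 0.331 in the knockdown). KCNE genes, whose products modify KCNQ channels, had a median of -0.01 in the knockdown, and 0 of 5 measured passed in limma (0 at an unadjusted p under 0.05, and 0 with the block). Kcne3 was highest, at 0.44 and 0.04.

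Other channels opened by calcium or sodium had a median of -0.15 in the knockdown and 0.00 in the rescue. None of the 12 passed in either (3 and 2 at an unadjusted p under 0.05), and with the repeat as a block 1 was lower in the knockdown, beside 3.48% of all genes. Kcnmb4, the neuronal beta subunit of the BK channel, was at -0.26 and -1.19 in the knockdown and at 0.03 and -0.09 in the rescue, and is the 1 that passed with the block (adjusted p = 0.0296, 0.149 without). Kcnma1, the BK pore subunit, was at -0.36 and -0.35 in the knockdown and at 0.02 and 0.03 in the rescue (limma adjusted p = 0.198 for the knockdown). The knockdown repeats of Kcnma1 lay closer together than those of any of the 6 channel genes.

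Partners and regulators of M- and SK-channels (anchoring proteins, kinases, phosphatases and ubiquitin ligases) had a median of -0.22 in the knockdown and 0.01 in the rescue. Of 21 measured, 1 fell in the knockdown and 0 rose, beside 0.171% of all genes lower, and 2 were lower with the repeat as a block, beside 3.48%. The 1 that passed in both fits was Mpp2, a scaffold protein reported to bind SK2, at -0.78 and -0.89 in the knockdown and at -0.13 and 0.14 in the rescue (mean -0.83 in the knockdown, SE 0.13, limma adjusted p = 0.0498). Stx1a, a vesicle fusion protein that also binds KCNQ channels, was at -0.55 and -0.90 in the knockdown and at 0.01 and -0.14 in the rescue (limma adjusted p = 0.0737 in the knockdown; 0.0139 with the repeat as a block). The groups did not overlap for Mpp2 or Stx1a, and both knockdown values lay below both rescue values for 15.1% of all genes. Both genes were named because of their knockdown values, so the lack of overlap is no separate result.

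Genes of the path from Gq-coupled receptors through phospholipase C and phosphoinositide kinases, which sets the PIP2 that KCNQ channels need, had a median of -0.22 in the knockdown and -0.04 in the rescue. None of 21 passed in either. At an unadjusted p under 0.05 in limma were 8 and 3, beside 3184 and 1484 of all 19938 genes. With the block 3 were lower in the knockdown, beside 3.48% of all genes. These were Htr2a, a serotonin receptor (-0.96 and -0.57 in the knockdown, 0.04 and -0.35 in the rescue), Chrm1, the muscarinic receptor that closes M-channels (mean -0.70 in the knockdown, 0.14 in the rescue), and Plcb1, a phospholipase C (-0.47 and -0.59 in the knockdown, -0.26 and -0.09 in the rescue). Their adjusted p-values with the block were 0.0244, 0.0178 and 0.0337, and 0.0837, 0.107 and 0.103 without it.

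Of 68 other potassium channel subunits measured, 0 passed in either direction in limma (25 at an unadjusted p under 0.05), with a median of -0.08, and 32 lay below control in both knockdown repeats. Over all genes, 3184 of 19938 were at an unadjusted p under 0.05 and 31.1% lay below control in both knockdown repeats. With the repeat as a block 15 of the 68 were lower and 0 higher, beside 3.48% of all genes lower. The lowest was Kcnv1, a silent subunit that modifies voltage-gated channels, at -1.44 and -1.07 (mean -1.26, below that of Kcnq3, limma adjusted p = 0.0618). Kcnip2, which binds A-type channels, was at -0.47 and -1.77, and Kcnb2, a delayed rectifier, at -0.82 and -1.32. The highest were Kcnk10, a background channel, at 0.36 in each repeat, Kcna2, an axonal subunit, at 0.45 and 0.25, and Kcng4, another silent subunit, at 0.29 and 0.33. With the repeat as a block all of Kcnv1, Kcnip2 and Kcnb2 passed as lower (limma adjusted p = 0.00270, 0.0201 and 0.0163), with means about as low as those of Kcnq3 and Kcnq5.

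**Figure D4:**
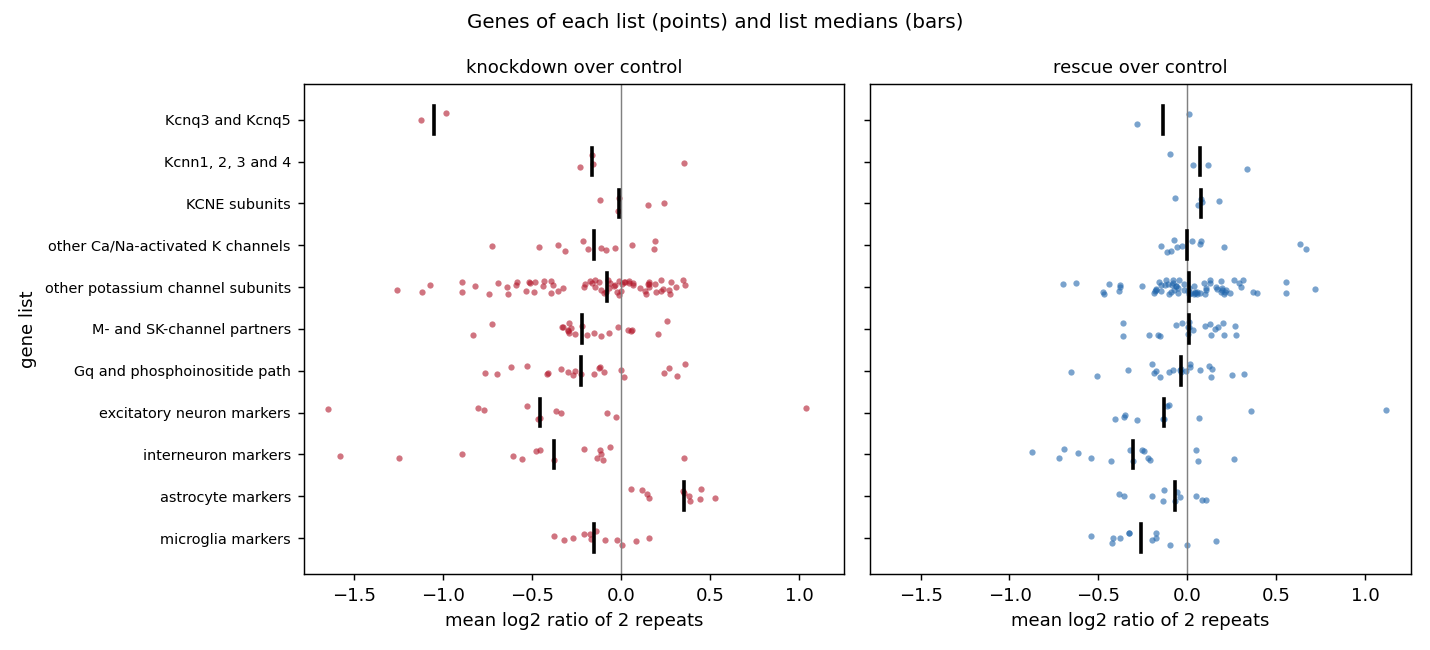
Mean log2 ratio to control of the 2 repeats for each gene of a list (points) and the list median (black bars), in the knockdown (left) and the rescue (right). Kcnq3 and Kcnq5 lie near the low end of the potassium channel genes in the knockdown. The excitatory neuron median lies at -0.46 and the astrocyte median at 0.35 in the same samples.

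Most markers of neurons had means below control in the knockdown, though the interneuron median was near 0 in repeat 1. In the rescue, 8 of 11 excitatory and 12 of 15 interneuron markers also had means below 0. Excitatory neuron markers had a median of -0.28 and -0.59 in the 2 knockdown repeats and of -0.10 and -0.17 in the rescue, with 10 of 11 means below 0 in the knockdown. Interneuron markers had one of -0.01 and -0.66 in the knockdown and of -0.28 and -0.54 in the rescue, and 14 of 15 means were below 0 in the knockdown. Astrocyte markers had one of 0.26 and 0.34 in the knockdown and of -0.08 and -0.03 in the rescue, with 11 of 11 means above 0 in the knockdown. Over all genes, 9880 of 19938 means were below 0 in the knockdown and 10493 in the rescue.

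Microglia markers had a median of -0.40 and -0.01 in the knockdown and of -0.41 and -0.15 in the rescue. Oligodendrocyte lineage markers were at 0.03 and 0.18 in the knockdown and at -0.09 and -0.15 in the rescue. Endothelial markers were at -0.01 and 0.30 in the knockdown and at 0.02 and 0.13 in the rescue, and fibroblast markers at -0.02 and 0.55 in the knockdown and at -0.12 and -0.11 in the rescue. Over all these marker lists 1 gene passed in the knockdown without the block, beside 0.306% of all genes. It was the neuropeptide gene Cck, at -0.99 and -1.51. With the repeat as a block, 4 of 11 excitatory neuron markers were lower and 1 higher in the knockdown. In the same fit 7 of 15 interneuron markers were lower and 3 of 11 astrocyte markers higher. Over all 19938 genes, 693 were lower and 381 higher in that fit. The part of a shift between neurons and glia in the lower Kcnq3 and Kcnq5 ratios was not tested.

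The genes whose 4 values lay nearest to those of Kcnq3, by Euclidean distance over the 4 samples on the log2 scale, were Ppm1e, a protein phosphatase (distance 0.28), Ramp3, a receptor accessory protein (0.31), Celf5, an RNA-binding protein (0.34), Wnt7b, a secreted signal (0.38), and Slc29a4, a monoamine transporter (0.39). Those nearest to Kcnq5 were Grin2a, an NMDA receptor subunit (0.13), Icam5, an adhesion protein of dendrites (0.21), Phyhip (0.24), Sez6 (0.25) and Arhgap33 (0.25). Kcnq5 lay at 0.60 from Kcnq3, as number 40 of its nearest genes, and Kcnq3 was number 146 for Kcnq5. The 2 differ in rescue repeat 1, in which Kcnq3 was at -0.49 and Kcnq5 at 0.03. Over 4 samples that share control arrays, nearness is a description.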

How the data were processed

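The values were 4 columns of linear ratios that the authors deposited, each a knockdown or rescue array divided by its repeat's control array, per the labels. Background correction, summarization and normalization are not given in the sources used here. Column medians were 1.00, 1.01, 0.995 and 0.996. Precision is limited by how few arrays there are, and dim probe sets could not be filtered.

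Of 35399 probe sets, 21789 had exactly 1 symbol, 1621 several, and 11989 were not listed. Matching 21698 by Entrez identifier to RefSeq (GRCm38.p6) changed 0 symbols. Log2 ratios were averaged per symbol (19938 genes) and tested with limma 3.58.1 in R 4.3.3 (two-sided) on all 4 columns, a coefficient per group. P-values were Benjamini-Hochberg adjusted over all genes, threshold 0.05. The fits were also run on simulated data in which a gene had the same spread in both groups. No result given here rests on those runs. Alternatives were the repeat as a block, other scalings, summaries and priors, and each sample left out.

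Samples of one repeat share a number in their titles and a control array per the labels, which pairs them. Their deviations correlated at 0.305 across genes. Whether repeats were separate cultures is not stated, so the p-values reflect the spread among these samples alone, possibly technical. Tests against 0 do not hold the control's own spread as a separate term. With the repeat as a block, they also leave out of the spread what both groups of a repeat share. Members and lists (other KCNQ and KCNE subunits, calmodulin genes, other calcium- or sodium-activated and other potassium channels, partners, the Gq path, and cell type markers) were chosen with earlier results of these data known. Beyond the 6 members, the named genes were those past the threshold, the most changed of each list by a fixed number, and the 5 nearest genes of each member past the threshold.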

Additional observations from a re-analysis of the deposited data

Results flagged for a closer look

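Kcnq5 stood out because its ratios to control differed between the groups in the fit with the repeat as a block. The knockdown was lower than the rescue by a log2 difference of -0.99 (SE 0.17 with the block, adjusted p = 0.0429; 0.229 without it), in 2 of 2 repeats. Kcnn1 was flagged because both knockdown values lay below control, at -0.22 and -0.24, and both rescue values above it, at 0.09 and 0.58. The share of all genes with these signs was not counted. Both knockdown values lay below both rescue values for 15.1% of all genes, so this alone does not set Kcnn1 apart. The Kcnn1 difference of -0.57 did not pass (limma adjusted p = 0.568, or 0.216 with the block).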

How the results depend on the processing

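With 2 samples a group, counts of genes moved widely, and the causes were not tested beyond what each fit's construction shows. For the knockdown against control, the 61 genes became 1074 with the repeat as a block, 20 after quantile normalization, 12 with the knockdown columns alone and 0 with every probe set tested (3873 at an unadjusted p under 0.05 in limma). The 2 channel genes became 0, 0 and 0 in the last 3 of these fits and 1 with probe sets of several symbols included. For the rescue against control, 0 genes became 25 with the block, 1 after quantile normalization and 176 with the rescue columns alone. For the knockdown against the rescue, 14 genes became 123 with the block (1 channel gene, Kcnq5), 2 after quantile normalization, 0 with every probe set (1317 at an unadjusted p under 0.05), and 4 with several symbols, with the median of probe sets or with a robust prior.

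With 1 sample left out, a lone sample was assumed to vary like the other group. Leaving out knockdown replicate 1 gave 1272 genes in the knockdown against control, leaving out knockdown replicate 2 gave 108, and leaving out 1 rescue replicate gave 12 whichever it was (0 to 3 channel genes). The rescue count was 176 without either knockdown replicate and 0 without either rescue replicate (786 and 1000 at an unadjusted p under 0.05 in limma), with 0 channel genes. The count for their difference was 350 and 147 without knockdown replicate 1 or 2, and 0 without rescue replicate 1 or 2 (990 and 897 unadjusted), with 0 to 2 channel genes. Kcnq3, Kcnq5 and Kcnn1 kept their sign in the knockdown and in the difference under every alternative run. Signs turned with a sample left out for Kcnn2 (-0.42 to 0.10 in the knockdown, -0.22 to 0.28 in the rescue, -0.45 to 0.065 in the difference), Kcnn3 (-0.43 to 0.11, -0.30 to 0.10, -0.33 to 0.21), Kcnn4 (-0.00998 to 0.71, -0.052 to 0.29, -0.13 to 0.60) and Kcnq5 in the rescue (-0.018 to 0.033). The block changed no other call of the 6 genes than that of Kcnq5 against the rescue. Of 210 values of these genes under alternatives, 182 kept sign and side of the threshold, 12 lost the call, 4 gained it and 12 turned sign. All 12 lost calls were of Kcnq3 or Kcnq5 in the knockdown against control, the only calls there were to lose. Each of these 2 genes had 12 alternatives in that comparison, so its calls were less stable than the 210 values make them look.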

Other observations

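A few other potassium channel genes lay on opposite sides of control in the knockdown and the rescue, and were picked out after their values were seen. Kcnv1 was at -1.44 and -1.07 in the knockdown and at 0.26 and 1.18 in the rescue (mean difference -1.98, limma adjusted p = 0.0991, or 0.00570 in the blocked fit). Kcnt2, a sodium-activated channel, was at -0.25 and -0.67 in the knockdown and at 0.52 and 0.81 in the rescue (difference -1.13, adjusted p = 0.167; 0.0436 with the block). Kcna2 was the opposite, at 0.45 and 0.25 in the knockdown and at -0.30 and -0.21 in the rescue (difference 0.60, adjusted p = 0.406; 0.148 with the block). Kcnn1 shared the direction of Kcnv1 and Kcnt2.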
